A study of Mus musculus with 12 samples.

Results

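The genes described here are 10 mouse genes for inhibitory receptors of the B cell surface and their direct partners: *Btla*, *Cd22*, *Cd72*, *Fcgr2b*, *Cd200*, *Siglecg*, *Pirb*, *Lair1*, *Clec12a* and *Ptpn6*. They were taken by symbol from the deposited count tables, 10 of the 13574 genes listed at 0 h or 4 h. 9 had a row under their own symbol. *Pirb* had none and was read from the row *Lilrb3*, which RefSeq (GRCm38.p6) lists as a synonym. All 10 had a row at both times and passed the filter on low counts in every comparison. Not every gene in the set is a receptor with an inhibitory tail. *Cd200* encodes a ligand for the receptor CD200R, and *Ptpn6* encodes the cytoplasmic phosphatase SHP-1. The set was put together with results of these libraries in view: *Btla*, *Cd22* and *Cd200* had been named from the genotype comparison at 4 h, and *Btla* and *Clec12a* from the genotype difference in culture response. For these genes the 4 h, culture and interaction values are therefore a description, and p-values are given for the 0 h comparison only. Where the text or a filled or open symbol says that they were called or not called there, this is not used as a test. It only labels the side of the threshold (adjusted p under 0.05) on which a value lay. The genotype difference in culture response contains the 0 h difference, so *Btla* and *Clec12a*, picked from it, get no p at 0 h either. Their calls at 0 h are likewise labels only.

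The RNA came from splenic follicular B cells (CD21/35- CD23+) of adult male mice, either WT (Gpr174+/Y) or KO (Gpr174-/Y). The KO allele was made in embryonic stem cells of a strain other than C57BL/6J and then extensively backcrossed to C57BL/6J. It carries tdTomato in place of the single coding exon of *Gpr174*, in all cells of the mouse. Both genotypes were sequenced directly after the sort (0 h) and after 4 h in complete RPMI without added stimulus, with 3 libraries in each of 4 groups (WT 0 h, WT 4 h, KO 0 h, KO 4 h). The design text counts 3 mice per genotype but ties no mouse to a library.

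Inhibitory receptors of B cells restrain signaling from the B cell antigen receptor. Most carry in their cytoplasmic tail an immunoreceptor tyrosine-based inhibitory motif (ITIM), a short stretch around a tyrosine. When a kinase such as LYN phosphorylates that tyrosine, the tail recruits the phosphatases SHP-1 or SHP-2, or the lipid phosphatase SHIP-1, which act against nearby signaling proteins. GPR174 is a receptor for lysophosphatidylserine that couples to the G protein Gs, and Gs raises cAMP.

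The ITIM was looked up in the longest coding sequence of each gene (GENCODE M21). The pattern is loose: 10560 of 21511 mouse coding sequences (49.1%) held at least 1 match, so a match alone marks no working motif. For the 8 receptors of the set that carry ITIMs, a selection of the matches near the tail end of the coding sequence is printed as 18 coding bases each, with the tyrosine codon in capitals, to show the sequence through which such tails act.
Btla codon 272 of 306: attgttTATgcttctttg
Cd22 codon 781 of 868: gttagtTATgccatcttg
Cd22 codon 841 of 868: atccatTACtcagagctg
Cd22 codon 861 of 868: gtagacTATgtgaccctc
Siglecg codon 657 of 688: ctccacTATgctgctctc
Fcgr2b codon 317 of 340: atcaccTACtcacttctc
Pirb codon 792 of 841: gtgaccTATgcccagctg
Pirb codon 822 of 841: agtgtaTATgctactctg
Lair1 codon 226 of 263: gtgacgTATatccagctg
Lair1 codon 255 of 263: agcacaTATgcagccatc
Cd72 codon 5 of 361: atcacgTATgcagacctg
Clec12a codon 5 of 267: attgttTATgcaaatctc
The codon numbers give the first codon of each window. Further matches towards the same end, at codon 815 of *Cd22*, 588 and 680 of *Siglecg*, 711 of *Pirb* and 37 of *Cd72*, are not printed. In BTLA, CD22, SIGLEC-G, FcγRIIB, PIR-B and LAIR-1 the tail is at the C terminus and these matches lie near the end of the coding sequence. CD72 and CLEC12A are lectin-like proteins of the opposite orientation, with the tail at the N terminus, and their windows begin at codon 5. *Cd200* held a single match, at codon 14 of 278, near its start, and none towards its short tail at the other end. *Cd22* held 5 matches in all and *Fcgr2b* 1.

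**Figure D1:**
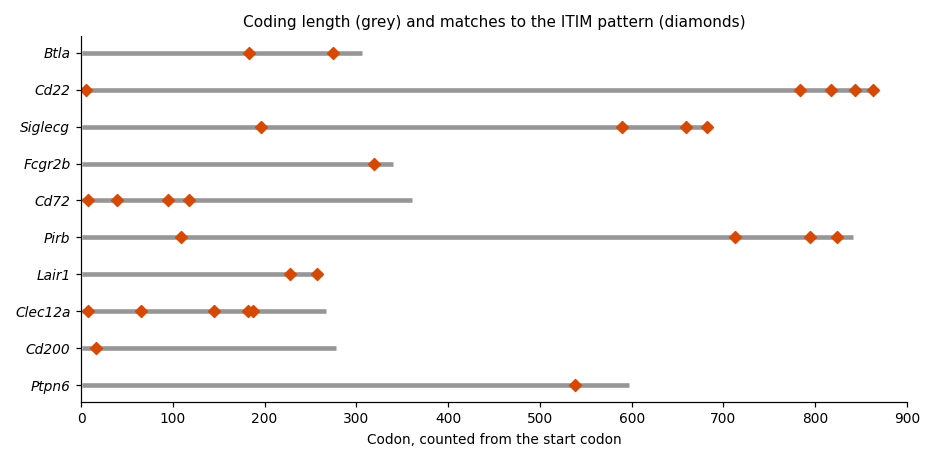
Position of every ITIM pattern match (diamonds) along the coding sequence (grey bars), in codons from the start codon, for the 10 genes. Of the 5 matches of *Cd22*, 4 lie near the right end, as do both of *Lair1*, and the matches of *Cd72* and *Clec12a* begin at the left end.

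All 12 libraries were compared first for depth and for the targeted gene. They held 6098941 to 11618787 reads each, of which 6.65% to 11.3% fell on the ribosomal row *Rn45s*. Levels are given as counts per 1000000 reads (CPM), scaled to each library's effective size. *Gpr174* was at 152 ± 4.26 CPM in WT 0 h and 74.7 ± 1.76 CPM in KO 0 h, and at 162 ± 8.36 and 109.6 ± 7.52 CPM at 4 h (SD, n = 3). It was lower in every KO library, and the reads that remained in KO were not resolved by exon, so they show only that the labels and the gene go the same way. The follicular B cell list summed to 12297 to 17391 CPM over its 11 genes with a row, led by *Cd74*, with no row for *Ighd*. Lists for other cells summed to far less: 375 to 1398 CPM for marginal zone B cells (led by *Cr2*, which follicular B cells also express), 437 to 574 for plasma cells (*Irf4*), 38.1 to 111 for macrophages and monocytes (*Cd68* or *Lyz2*), 21.9 to 133 for neutrophils (*S100a9*), 3.56 to 14.1 for dendritic cells (*Flt3*), 20.5 to 42.0 for T cells (*Lck*), 3.71 to 15.3 for NK cells (*Gzma*) and 40.5 to 125 for erythroid cells (*Alas2*). The proliferation list (*Mki67*) summed to 271 to 375 CPM in fresh WT cells, 507 to 683 CPM in fresh KO cells, 269 to 312 CPM in cultured WT cells and 294 to 443 CPM in cultured KO cells. In bulk RNA a lower level can come from fewer cells of a type or from less RNA per cell, which cannot be told apart here.

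Together the 10 genes took 0.420% to 0.430% of all reads in fresh WT cells and 0.422% to 0.480% in fresh KO cells. After culture they took 0.171% to 0.198% in WT and 0.346% to 0.366% in KO. Between genes, levels can be compared only per kilobase of exon. By that measure *Btla* (354 ± 20.5 CPM per kb) and *Cd22* (333 ± 7.09) led in WT 0 h and overlapped each other, followed by *Ptpn6* at 220.1 ± 1.88, *Siglecg* at 108 ± 1.99 and *Cd72* at 51.0 ± 2.85 (SD, n = 3). *Cd200* (22.6 ± 3.66), *Fcgr2b* (17.0 ± 0.907) and *Pirb* (16.2 ± 2.51) came next, the last pair overlapping, and *Clec12a* (4.18 ± 0.476) and *Lair1* (0.414 ± 0.105) were the lowest. In KO 0 h the order was the same. In WT 4 h *Siglecg* (72.4 ± 5.99) came before *Ptpn6* (65.7 ± 5.09), with overlapping libraries, and *Fcgr2b* (18.6 ± 0.517) stood above *Cd200* (11.5 ± 1.60) with no overlap. In KO 4 h the order was again that of the fresh cells.

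**Figure D2:**
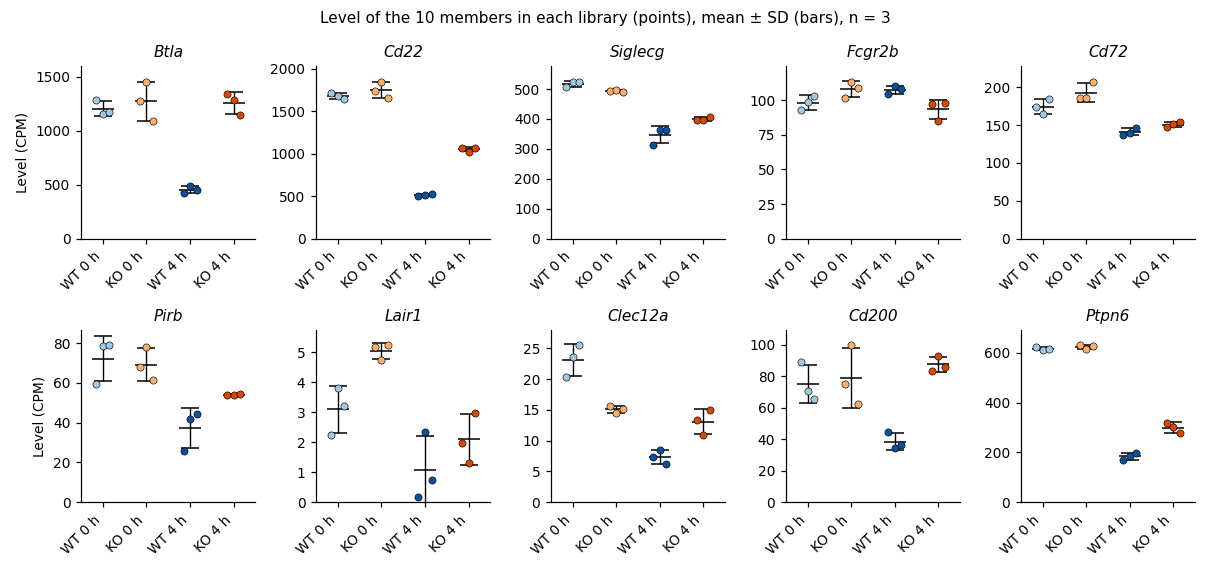
Level of each of the 10 genes in CPM, each panel on its own linear axis from 0, by group, with each library as a point and the mean ± SD of 3 libraries as bars (the bar of *Lair1* in WT 4 h is clipped at 0). *Btla*, *Cd22*, *Cd200* and *Ptpn6* are lower in WT 4 h than in the other 3 groups, while all libraries of *Fcgr2b* lie between 85.2 and 113 CPM.

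The first question was whether the genes already differed between genotypes in fresh cells. edgeR's quasi-likelihood test with Benjamini-Hochberg adjustment over 11345 genes called 1 of the 10 at an adjusted p under 0.05, against 0.987% of all genes tested, a count from which nothing is read because the gene called was one picked on values that include this difference. It was *Clec12a*, a lectin-like inhibitory receptor best known from myeloid cells. It stood at 20.3, 23.7 and 25.5 CPM in the WT 0 h libraries and at 15.7, 14.5 and 15.1 CPM in KO 0 h. Every KO library was below every WT library, and the log2 fold change of KO over WT was -0.61 ± 0.14 (SE). The call did not hold with library totals as the only scaling (-0.58) or without any single one of WT 0 h replicates 2 and 3 and KO 0 h replicates 1, 2 and 3 (-0.59, -0.53, -0.64, -0.59 and -0.61). The macrophage and monocyte list summed to 99.9 to 111 CPM in WT 0 h and 99.3 to 109.6 CPM in KO 0 h. The neutrophil list summed to 23.5 to 60.7 CPM in WT 0 h and 43.6 to 133 CPM in KO 0 h. The ranges of each list overlapped between genotypes. Of the neutrophil genes, all 5 tested had a positive log2 fold change of KO over WT (median 1.07), and 1 was called, against 0.987% of all genes. Of the macrophage and monocyte genes, 6 of 16 tested were positive (median -0.04) and 0 were called. The part of such cells in the *Clec12a* difference was not tested.

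The other 9 genes were not called at 0 h. *Btla*, which encodes the receptor for HVEM, was at 1282, 1151 and 1175 CPM in WT 0 h and at 1279.6, 1452 and 1089 CPM in KO 0 h, with overlapping groups (log2 fold change 0.09, 2-SE interval -0.06 to 0.24). *Cd22*, which encodes a lectin that binds sialic acid, was at 1718, 1679.8 and 1646 CPM in WT and 1740.0, 1841 and 1652 CPM in KO (log2 fold change 0.06, interval -0.03 to 0.15, edgeR adjusted p = 0.624). The upper ends of the intervals correspond to 118% of the WT level for *Btla* and 111% for *Cd22*.

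*Cd72* (log2 fold change 0.15, interval 0.03 to 0.27, edgeR adjusted p = 0.317), *Fcgr2b* (0.14, 0.0030 to 0.28, 0.410), *Cd200* (0.08, -0.19 to 0.35, 0.869), *Siglecg* (-0.06, -0.15 to 0.03, 0.624), *Pirb* (-0.06, -0.28 to 0.16, 0.881) and *Ptpn6* (0.03, -0.06 to 0.11, 0.856) lay close to 0. *Lair1*, a receptor for collagen, had 20, 34 and 36 reads in WT 0 h and 41, 32 and 38 reads in KO 0 h, 2.25 to 3.81 against 4.74 to 5.23 CPM. Its difference (0.71, interval 0.13 to 1.29) was not called (edgeR adjusted p = 0.315). The libraries of the 2 genotypes did not overlap for 4 of the 10 genes, *Cd72* and *Lair1* being higher in KO and *Siglecg* and *Clec12a* lower, against 18.3% of all genes tested. With libraries in groups of 3, the smallest p an exact permutation test of one gene could give is 0.1.

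The second question was how far the genotypes stood apart after 4 h of culture, where *Btla*, *Cd22* and *Cd200* had been picked out. *Btla* was at 421, 488 and 454 CPM in the WT 4 h libraries and at 1344, 1285 and 1142 CPM in KO 4 h. The KO libraries lay in the range of fresh cells and the WT libraries far below it, with a log2 fold change of 1.47 ± 0.07 (SE), or 2.77-fold. *Cd22* was at 498, 515 and 528 CPM in WT 4 h and at 1063, 1022 and 1068 CPM in KO 4 h, 1.03 ± 0.06 on the log2 scale. Here too the groups did not overlap, but the KO libraries were below those of fresh cells. *Cd200* was at 44.4, 34.4 and 36.2 CPM in WT 4 h and 83.4, 93.0 and 85.8 CPM in KO 4 h (1.20 ± 0.09), again with no overlap.

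*Ptpn6*, the phosphatase that ITIM tails recruit, was at 169, 186 and 197 CPM in WT 4 h and at 318, 303 and 277 CPM in KO 4 h, a log2 fold change of 0.70 ± 0.07. *Clec12a* was at 7.26, 8.45 and 6.22 CPM in WT 4 h and 13.3, 10.9 and 15.0 CPM in KO 4 h (0.85 ± 0.19), so its genotype difference had the opposite sign at 0 h and at 4 h. Nothing is read from that, since the gene was picked from a comparison that contains both differences. *Pirb*, which encodes a receptor for MHC class I, was at 26.0, 41.9 and 44.5 CPM in WT 4 h and 53.7, 54.1 and 54.2 CPM in KO 4 h (0.51 ± 0.14). The row of *Pirb* had 161 to 453 reads per library at 4 h, next to 15 to 41 reads on *Lilra6*, a related gene, and reads shared among such relatives are uncertain. *Pirb* was not called without KO 4 h replicate 1, 2 or 3 in turn (0.52, 0.51 and 0.51), and *Clec12a* was not called without KO 4 h replicate 3 (0.74).

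The other 4 genes were not called between genotypes after culture. *Siglecg*, another sialic acid-binding receptor of B cells, was at 314, 365 and 364 CPM in WT 4 h and at 396, 396 and 408 CPM in KO 4 h (0.20 ± 0.06). It was called with DESeq2, with all 4 groups in the fit and without WT 4 h replicate 2 (0.20, 0.20 and 0.24). *Cd72*, a coreceptor of the lectin-like type, was at 137, 139 and 146 CPM in WT 4 h and 147, 151 and 154 CPM in KO 4 h (0.09 ± 0.06). *Fcgr2b*, the inhibitory Fc receptor for IgG, went the other way: it was at 104, 110.1 and 108 CPM in WT 4 h and at 97.2, 85.2 and 97.9 CPM in KO 4 h (-0.20 ± 0.07). *Lair1* had 1, 15 and 7 reads in WT 4 h and 15, 11 and 22 in KO 4 h, too few to place the groups apart (0.97 ± 0.57); without WT 4 h replicate 2 the difference was 2.01 and was called.

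In counts, edgeR called 6 of the 10 genes at 4 h, each higher in KO, against 10.9% of all 11123 genes tested in either direction and 5.67% higher in KO. The KO libraries lay above the WT libraries without overlap for 8 genes, against 13.5% of all genes. The median log2 fold change of the 10 genes was 0.77, against -0.0048 over all genes. The set was chosen on this comparison, so nothing is read from these counts.

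**Figure D3:**
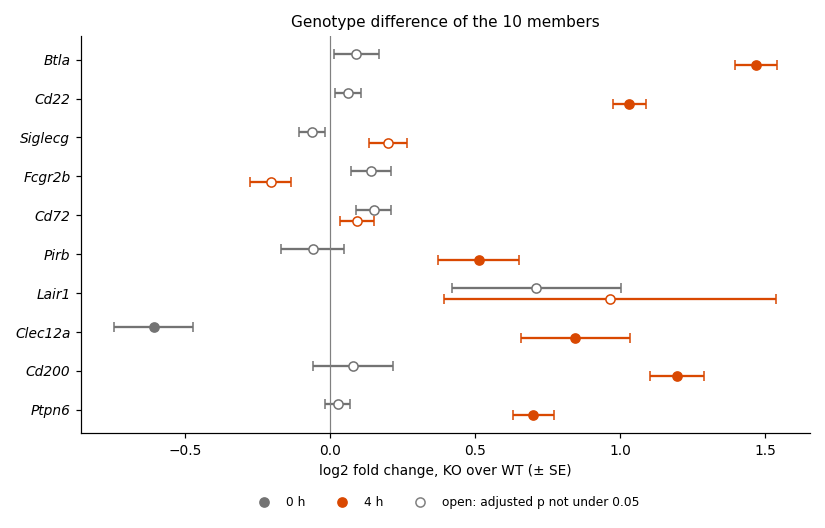
Log2 fold change of KO over WT (± SE) for each gene at 0 h (grey) and at 4 h (orange), 3 libraries per group, open symbols marking an adjusted p not under 0.05. At 0 h all but *Clec12a* and *Lair1* lie close to 0, while at 4 h *Btla*, *Cd200* and *Cd22* lie at 1.47, 1.20 and 1.03.

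The third comparison followed each genotype through culture, in a fit of all 12 libraries over 11572 genes. In WT cells *Ptpn6* stood 3.35-fold lower at 4 h than at 0 h (log2 fold change -1.74 ± 0.06), *Cd22* 3.27-fold (-1.71 ± 0.05), *Clec12a* 3.20-fold (-1.68 ± 0.16) and *Btla* 2.65-fold (-1.40 ± 0.08). *Cd200* was 1.96-fold lower (-0.97 ± 0.14), *Pirb* 1.91-fold (-0.93 ± 0.14), *Siglecg* 1.49-fold (-0.57 ± 0.06) and *Cd72* 1.24-fold (-0.31 ± 0.06). *Lair1* (-1.54 ± 0.49) was not called without WT 0 h replicate 2 or WT 4 h replicate 1 or 3, and ranged from -2.59 without WT 4 h replicate 2 to -1.10 without WT 4 h replicate 1. *Fcgr2b* did not share the direction (0.13 ± 0.07).

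In KO cells 3 of these genes were not called and stood near their fresh level. *Btla* was at -0.02 ± 0.08, *Cd200* at 0.15 ± 0.13 and *Clec12a* at -0.22 ± 0.16. The sign of *Btla* was positive in some alternatives, among them scaling by library totals (0.07) and leaving out KO 0 h replicate 2 (0.09, the highest). *Cd22* (-0.73 ± 0.05) and *Ptpn6* (-1.06 ± 0.06) were lower after culture in KO cells as well, with smaller values than in WT. *Cd72* (-0.35 ± 0.06), *Lair1* (-1.28 ± 0.42), *Siglecg* (-0.30 ± 0.06), *Pirb* (-0.35 ± 0.14) and *Fcgr2b* (-0.21 ± 0.07) were lower too, and *Pirb* among them was not called. The call of *Lair1* was lost without any 1 of KO 0 h replicates 1, 2 and 3 and KO 4 h replicates 1 and 2, and that of *Fcgr2b* without KO 0 h replicate 2 or 3 or KO 4 h replicate 2 and with library totals only. The macrophage and monocyte list, which includes genes expressed beside *Clec12a*, *Pirb* and *Lair1* in myeloid cells, summed to 99.3 to 111 CPM at 0 h, and at 4 h to between 38.1 and 57.1 CPM in WT and between 40.0 and 60.5 CPM in KO. Its complement genes *C1qa*, *C1qb* and *C1qc* had no row at 4 h. At 4 h the list overlapped between genotypes, and its part in the culture changes of those 3 genes was not tested.

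edgeR called 9 of the 10 genes lower after culture in WT, against 18.0% of all genes lower and 33.1% in either direction. It called 6 lower in KO, against 13.0% and 23.3%. The median change of the set was -1.19 in WT and -0.33 in KO, against 0.0048 and 0.0016 over all genes. Of all genes called, 45.7% were higher after culture in WT and 44.2% in KO, and with library totals only 66.7% and 66.3%, a scaling that moved the median over all genes to 0.11 in WT. The genotype and culture comparisons share libraries and are not independent of each other.

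**Figure D4:**
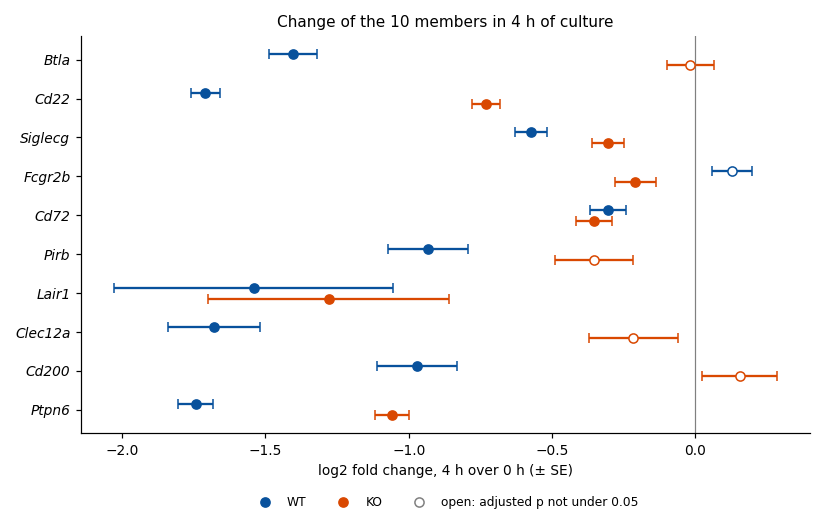
Log2 fold change of 4 h over 0 h (± SE) for each gene in WT (blue) and KO (orange), 3 libraries per group, open symbols marking an adjusted p not under 0.05. The blue points of *Btla*, *Cd22*, *Clec12a*, *Cd200* and *Ptpn6* lie between -1.74 and -0.97 and their orange points further right, while *Cd72* has nearly the same value in both genotypes.

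The difference between the 2 culture changes, KO minus WT, was 1.46 ± 0.22 for *Clec12a*, 1.39 ± 0.12 for *Btla*, 1.12 ± 0.19 for *Cd200*, 0.98 ± 0.07 for *Cd22* and 0.68 ± 0.08 for *Ptpn6* on the log2 scale. It was 0.27 ± 0.08 for *Siglecg* and -0.34 ± 0.10 for *Fcgr2b*, both near the threshold: *Siglecg* was called in 8 of 18 alternative fits and *Fcgr2b* in 6 of 18. It was -0.05 ± 0.09 for *Cd72*, 0.58 ± 0.20 for *Pirb* and 0.26 ± 0.64 for *Lair1*, which were not called. *Pirb* was called in 3 of 18 alternative fits, with the replicate block (0.60) and without WT 0 h replicate 1 (0.70) or WT 4 h replicate 3 (0.74). Leaving out WT 4 h replicate 2 moved *Lair1* to 1.31, and leaving out WT 4 h replicate 1 moved it to -0.18, neither of them called. Thus 6 genes were called with the higher value in KO and 1 with the lower, against 6.39% of all genes in either direction and 3.94% higher in KO, counts from which nothing is read since the choice of genes used this comparison.

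The members lie on chromosomes 1, 4, 6, 7 and 16, and none is on the X chromosome that carries *Gpr174* (GRCm38, GENCODE M21). *Btla* (chromosome 16, 45224315 to 45257670, plus strand) and *Cd200* (45382135 to 45409053, minus strand) are neighbours with 124464 bases and 0 annotated genes between them. The 4 other genes tested at 4 h within 500000 bases on either side were chosen by position after values were seen. They were *Gtpbp8* (0.10 ± 0.14), *Slc35a5* (-0.17 ± 0.11), *Atg3* (0.29 ± 0.09) and *Abhd10* (-0.24 ± 0.17), with edgeR adjusted p from 0.0511 for *Atg3* to 0.740 for *Gtpbp8*. *Cd22* (30865402 to 30880342), *Siglecg* (43408204 to 43418358), *Pirb* (3711409 to 3720391) and *Lair1* (4003402 to 4063204) are all on chromosome 7. *Clec12a* (129342691 to 129365303) and *Ptpn6* (124720707 to 124738714) are on chromosome 6, *Cd72* (43446462 to 43454628) is on chromosome 4 and *Fcgr2b* (170958617 to 170976547) on chromosome 1. Exons of *Cd72* share 41.6% of their bases with *Tesk1* on the opposite strand, those of *Cd22* 9.50%, *Ptpn6* 6.96% and *Fcgr2b* 2.68% with other opposite-strand genes, and reads there cannot be assigned without strand.

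Because cAMP acts on transcription through the cAMP response element (CRE), and the NR4A receptors through the NBRE, the RefSeq promoters (GRCm38.p6, 250 bases before to 50 after each start) were searched on both strands for the CRE (TGACGTCA), its shorter core TGACG, which lies within the CRE, and the NBRE (AAAGGTCA). Over 32851 promoters, 1.79% held the CRE, 20.8% the core and 1.51% the NBRE. Of the 11 promoters of the 10 genes, *Cd200* and *Cd72* each held 1 core, beginning at positions -200 and -28 from the start, and no full CRE or NBRE letters were in these windows. The 250 upstream bases are shown for the 3 genes with the largest difference at 4 h and for *Cd72*, which holds the core. Capitals mark the core, here as its reverse complement CGTCA.
Btla, plus strand, chr16:45224087-45224336: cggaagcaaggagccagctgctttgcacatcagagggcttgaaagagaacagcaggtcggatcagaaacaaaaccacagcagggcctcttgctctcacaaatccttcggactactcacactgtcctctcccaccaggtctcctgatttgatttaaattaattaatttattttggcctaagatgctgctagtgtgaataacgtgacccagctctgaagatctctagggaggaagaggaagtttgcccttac
Cd200, minus strand, chr16:45409054-45409303: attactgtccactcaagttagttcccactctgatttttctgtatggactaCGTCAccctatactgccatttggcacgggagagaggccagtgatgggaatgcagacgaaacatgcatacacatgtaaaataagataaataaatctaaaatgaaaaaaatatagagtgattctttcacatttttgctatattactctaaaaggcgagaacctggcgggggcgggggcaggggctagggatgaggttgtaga
Cd22, minus strand, chr7:30879029-30879278: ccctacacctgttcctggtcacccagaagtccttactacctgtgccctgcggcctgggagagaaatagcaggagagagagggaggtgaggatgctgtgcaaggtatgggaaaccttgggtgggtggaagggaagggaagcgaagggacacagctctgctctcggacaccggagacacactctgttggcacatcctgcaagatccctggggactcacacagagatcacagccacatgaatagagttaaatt
Cd72, minus strand, chr4:43454627-43454876: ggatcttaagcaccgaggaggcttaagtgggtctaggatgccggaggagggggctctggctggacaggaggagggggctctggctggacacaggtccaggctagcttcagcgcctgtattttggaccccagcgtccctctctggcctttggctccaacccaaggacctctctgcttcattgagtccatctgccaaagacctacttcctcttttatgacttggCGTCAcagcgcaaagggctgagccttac
The core was present in the windows of *Cd200* and *Cd72* and absent from those of *Btla* and *Cd22*. The window of *Cd22* follows the RefSeq start and lies inside the longer GENCODE gene, which ends at 30880342. Whether the core acts on any of these genes was not tested.

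To see what else followed the same pattern, the profiles of log2 CPM over the 12 libraries, each centred on its mean, were compared over 11572 genes by their root mean square distance. Nearest to *Btla* were *Ciita* (0.14), *Dexi* (0.19) and *Swap70* (0.23), against a spread of 0.64 for *Btla* itself. Nearest to *Cd22* were *Coro2a* (0.10), *Bend5* (0.10) and *Lrmp* (0.11), against 0.71. *Cd200* lay nearest to *Cacna1d* (0.20), *Dexi* (0.21) and *Gm11346* (0.22), against 0.50, and *Clec12a* to *Ceacam1* (0.21), *Calhm2* (0.22) and *Fcer2a* (0.23), against 0.60. *Dexi* was thus near to both *Btla* and *Cd200*. The 12 points share their libraries and groups, and the distances are descriptions with no test.

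Other genes of the same pathway, listed by function with earlier results of these data known, were then compared at 4 h by edgeR's quasi-likelihood test. Because the lists were drawn up with those results known, nothing is read from their counts of calls or their medians. The adjusted p of a gene is printed as a label for that gene and is no test of its list. In the list drawn up as other inhibitory receptors, 15 of 31 genes were tested and 4 were called higher in KO, against 5.67% of all genes tested. The list is broad, and nothing here shows that each of its genes encodes an inhibitory receptor. *Lilrb4a*, an inhibitory receptor of the same family as PIR-B, was at 7.53 ± 1.34 CPM in WT 4 h and 13.0 ± 0.706 CPM in KO 4 h (log2 fold change 0.78 ± 0.17, edgeR adjusted p = 0.00824). *Cd84*, a SLAM family receptor, was at 154 ± 17.8 and 242 ± 16.3 CPM (0.65 ± 0.08, 4.00e-05). *Ceacam1*, which carries ITIMs, was at 43.1 ± 2.64 and 67.3 ± 1.74 CPM (0.65 ± 0.08, 4.94e-05), and *Clec2d*, a lectin-like protein, at 107 ± 4.14 and 139.6 ± 7.15 CPM (0.39 ± 0.06, 0.000851; SD, n = 3). The median of the 15 was 0.25, against -0.0048 over all genes. Culture changes of the genes called differed in direction. *Lilrb4a* rose in WT (0.83 ± 0.23) and in KO (1.60 ± 0.23), while *Cd84* and *Ceacam1* fell in each genotype, by less in KO. *Clec2d* fell in WT (-0.18 ± 0.06) and rose in KO (0.31 ± 0.06).

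Among ligands and the enzymes that make them, 3 of 9 tested genes were called higher in KO at 4 h, against 5.67% of all genes. All 3 were lower after culture in both genotypes, by less in KO. *St6gal1*, the sialyltransferase that makes the glycan bound by CD22, was at 247 ± 13.4 CPM in WT 4 h and 379 ± 11.1 CPM in KO 4 h (0.62 ± 0.06, edgeR adjusted p = 3.81e-06), with culture changes of -1.09 ± 0.07 in WT and -0.30 ± 0.07 in KO. *Cmah*, which hydroxylates the sialic acid to the form preferred by mouse CD22, was at 469.9 ± 19.4 and 634 ± 9.34 CPM (0.43 ± 0.06, 9.10e-05). *Ptprc*, which encodes CD45, was at 1217 ± 40.2 and 1516 ± 70.8 CPM (0.32 ± 0.06, 0.00173; SD, n = 3). *Tnfrsf14*, the ligand of BTLA, was at 4.95 ± 1.67 CPM in WT 4 h and 3.45 ± 0.753 CPM in KO 4 h and was not called (-0.52 ± 0.30, edgeR adjusted p = 0.327), and *Cd200r1* had no row. *Tnfrsf14* is named outside the naming rule, after its values were seen. The median of the 9 was 0.11.

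The kinases, phosphatases and adaptors around ITIM signaling went in both directions: 23 of 24 were tested, 2 were called higher and 4 lower in KO, against 5.67% of all genes higher and 10.9% in either direction, with a median of -0.0296. *Ptprj*, the receptor phosphatase CD148, was at 436 ± 4.14 CPM in WT 4 h and 210.4 ± 7.46 CPM in KO 4 h (-1.05 ± 0.06, edgeR adjusted p = 6.41e-09). *Inpp5d*, which encodes SHIP-1, was at 474 ± 9.42 and 249.6 ± 9.60 CPM (-0.93 ± 0.06, 2.62e-08). *Fyn*, a Src family kinase, was at 91.1 ± 4.84 and 48.4 ± 1.44 CPM (-0.91 ± 0.07, 4.99e-07), and *Cblb*, a ubiquitin ligase, at 443 ± 2.65 and 248 ± 8.11 CPM (-0.84 ± 0.06, 5.55e-08; SD, n = 3).

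The genes called higher in KO in this list were *Blk*, another Src family kinase (0.49 ± 0.06, edgeR adjusted p = 3.07e-05), and *Ptprc*. Neither rose in culture: *Blk* was at -0.54 ± 0.06 in WT and -0.07 ± 0.06 in KO, and *Ptprc* at -0.997 ± 0.05 and -0.71 ± 0.05. *Inpp5d* rose by 1.16 ± 0.06 in WT culture and changed by 0.09 ± 0.06 in KO, so the transcripts of SHIP-1 and of SHP-1 (*Ptpn6*) had opposite signs in WT culture. Culture values of genes named for their 4 h difference share its libraries and are a description only. *Lyn* (-0.12 ± 0.06, edgeR adjusted p = 0.212) and *Ptpn11*, which encodes SHP-2 (-0.04 ± 0.07, 0.792), were not called between genotypes at 4 h; both are named after their values were seen.

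Receptors that promote B cell activation, and their partners, had 12 of 14 genes tested, and 7 of these were called higher in KO, against 5.67% of all genes. The median of the 12 was 0.21. *Cr2*, the complement receptor CD21, was at 159 ± 26.6 CPM in WT 4 h and 299.6 ± 22.3 CPM in KO 4 h (0.91 ± 0.10, edgeR adjusted p = 9.22e-06). *Cd180*, a Toll-like receptor relative, was at 231 ± 17.7 and 413 ± 29.2 CPM (0.84 ± 0.07, 8.80e-07), *Cd38* at 243 ± 26.6 and 381 ± 12.1 CPM (0.65 ± 0.07, 2.12e-05) and *Ms4a1*, which encodes CD20, at 383 ± 54.8 and 578 ± 22.3 CPM (0.59 ± 0.08, 0.000168; SD, n = 3). The other 3 genes called differed by less. No test compared the lists with each other.

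**Figure D5:**
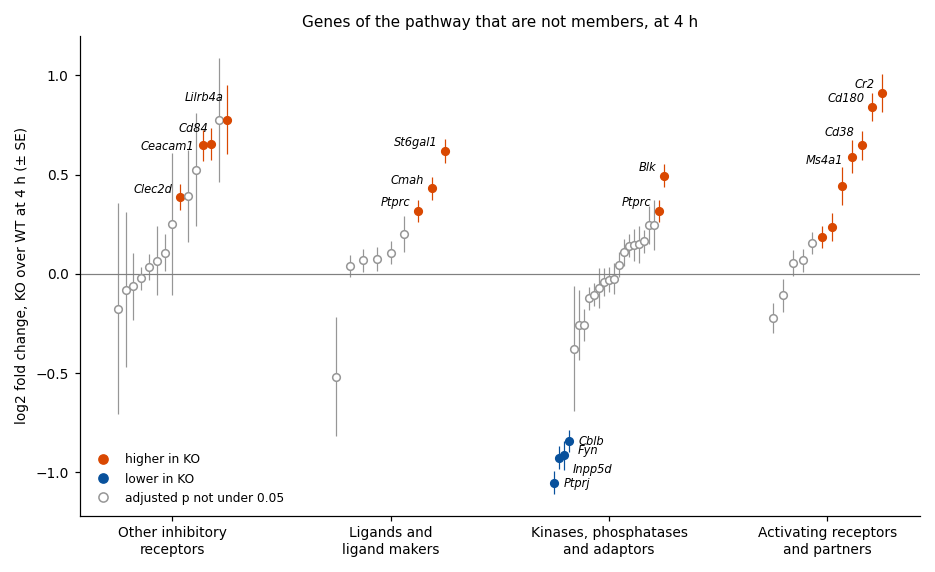
Log2 fold change of KO over WT at 4 h (± SE, 3 libraries per group) for every tested gene of 4 lists that are not in the set of 10, ordered by value within a list, filled symbols marking an edgeR adjusted p under 0.05. The 4 genes lower in KO, *Ptprj*, *Inpp5d*, *Fyn* and *Cblb*, lie between -1.05 and -0.84 in the list of kinases, phosphatases and adaptors.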

How the data were processed

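Follicular B cells were sequenced in 12 libraries. The authors prepared them with the Ovation RNA-seq System V2, sequenced single-end reads, mapped these with STAR (build mm10) and used HTSeq to count reads per gene (versions, annotation and strand setting not given in the sources used here). The authors deposited raw counts, a table of 13269 genes at 0 h and another of 13142 at 4 h, each limited to genes with at least 10 reads over its 6 libraries. 0 columns were left unmapped. Total counts per library, which set the precision of low genes, and the share on *Rn45s* are given in the report.

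Genotype differences (KO over WT) were tested within each table, and culture changes and the interaction over all 12 libraries and the 12837 genes in both tables. Tests used edgeR 4.0.16 (quasi-likelihood, TMM, filterByExpr, R 4.3.3) with Benjamini-Hochberg adjustment, and a gene was called at an adjusted p under 0.05. SE is the log2 fold change divided by the square root of F. Scripts were tested on simulated data. No pair of replicates matched within sampling noise (chi-square per degree of freedom 1.94 to 9.30). DESeq2 1.42.0, other scalings, filters, single libraries left out and a replicate block were tried as alternatives.

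The 10 genes and all gene lists were chosen with earlier results of these data known. All 10 are described. From each list of other inhibitory receptors, ligands, ITIM signaling genes and activating receptors, genes called at 4 h are named, at most the 4 with the largest change in each direction. *Tnfrsf14*, *Lyn* and *Ptpn11* are named outside this rule, after their values were seen. Cell type lists are given as summed CPM.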

Additional observations from a re-analysis of the deposited data

Results flagged for a closer look

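The culture change differed between WT and KO, by the interaction term of the 12-library fit, for 7 of the 10 genes, against 6.39% of all genes tested. The set was chosen with this comparison known, so nothing is read from the count, and no p is given. The log2 change in KO minus that in WT was 1.46 for *Clec12a*, 1.39 for *Btla*, 1.12 for *Cd200*, 0.98 for *Cd22*, 0.68 for *Ptpn6*, 0.27 for *Siglecg* and -0.34 for *Fcgr2b*. The values of *Siglecg* and *Fcgr2b* lay near the threshold and were called in 8 and 6 of 18 alternative fits, and those of the other 5 genes were called in all 18. The genotype difference of *Clec12a* had opposite signs in fresh and cultured cells. The gene was picked from a comparison that contains both differences, so nothing is read from this. Its 0 h call, a label only, was lost in 6 of 13 alternatives. Groups of 3 libraries were not searched for single deviating libraries.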

How the results depend on the processing

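With 3 libraries per group, counts over all genes moved when 1 library was left out: from 26 (without KO 0 h replicate 1) to 161 at 0 h, against 112, and from 776 (without KO 4 h replicate 1) to 1361 at 4 h, against 1212. The single member call at 0 h, *Clec12a*, lay between 0 and 1 over these fits and was 0 with library totals only. The signs of the 0 h fold changes of *Btla* (-0.0187 to 0.19), *Cd200* (-0.12 to 0.23) and *Pirb* (-0.18 to 0.0209) also turned, none being called. With library totals only, 1 member (*Fcgr2b*, 0.24) was called higher after culture in WT, against 0, and without KO 0 h replicate 2, 1 member (*Cd200*) in KO, against 0 (range 0 to 1). The lower interaction of *Fcgr2b* ranged from 0 to 1 calls with single libraries left out and was 0 with library totals only, with no filter on low counts and with the replicate block. The cause of these moves was not tested. With library totals only, 64.8% of the calls at 0 h were higher in KO, against 49.1%. Of 1378 values recomputed, 1325 were labeled the same. For tested fold changes this meant the same direction and side of the threshold. For the other fold changes it meant staying within the spread between replicates. For counts of calls it meant only staying near the main count, and 161 against 112 at 0 h passed as the same.

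A replicate block was fitted because the labels number the libraries. Same-number libraries correlated at -0.04 to 0.15 across culture (4 of 6 pairs over 0.1) and at -0.10 to 0.07 across genotypes (0 of 6). KO 0 h replicate 1 did not correlate best with its own number at 4 h, but every other 0 h library did (0.07 to 0.15). The labels do not say whether 0 h and 4 h libraries of a number share a mouse. The main fits treat all libraries as independent, which would not hold if they do, and the block is given as an alternative. With the block, the calls over all genes were 138 at 0 h, 1062 at 4 h, 3980 and 2859 for culture in WT and KO, and 842 for the interaction. *Pirb* was called with the block in KO culture (-0.35) and in the interaction (0.60), where it was not without it.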

Other observations

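In fresh cells 1 of 9 ligand genes and 1 of 12 activating receptor genes tested passed edgeR's quasi-likelihood test, against 0.987% of all genes tested. None of 16 genes in the list of other inhibitory receptors and 23 ITIM signaling genes did. The genes that passed are named after their values were seen. Of the cell type lists, 6 of 15 proliferation genes and 1 of 5 neutrophil genes tested were called higher in KO at 0 h. In the plasma cell list 1 of 6 was called lower. The share over all genes was again 0.987%. All of these lists were drawn up with earlier results known, so nothing is read from these counts. *Cd24a*, a glycoprotein that binds SIGLEC-G, was at 613 ± 52.0 CPM in WT 0 h and 471 ± 41.9 CPM in KO 0 h (log2 fold change of KO over WT -0.37 ± 0.07, edgeR adjusted p = 0.0138). *Cd38* was at 450.2 ± 23.1 CPM in WT 0 h and 533 ± 24.5 CPM in KO 0 h (0.25 ± 0.05, edgeR adjusted p = 0.0290). Among the ITIM signaling genes, *Ptprj* rose in WT culture (0.60 ± 0.05) and fell by 0.46 in KO culture, and the interaction was -1.06 ± 0.08. *Cblb* rose by 0.65 ± 0.06 in WT and fell by 0.17 in KO. *Fyn* rose by 0.96 ± 0.07 in WT and was at 0.08 ± 0.08 in KO. These genes were named for their differences at 4 h, and their culture and interaction values share those libraries. The values are therefore a description, and no p is given.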
